A study of Mus musculus with 10 samples.

Results

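Glycolysis, its lactate outlet, its link to the mitochondria and the pentose phosphate pathway were followed through 38 genes, taken by name for their place in the pathway: glucose transporters, hexokinases and Gpi1, phosphofructokinases, the Pfkfb enzymes, lower glycolysis, lactate enzymes and carriers, pyruvate dehydrogenase with its kinases, and the main pentose phosphate enzymes. Their names matched 39 of the 57010 rows of the deposited count table, because Aldoa has a second row that held almost no counts, and 37 of those rows were among the 18966 genes tested. Pdk4 had 0 counts in every library (3 counts, the limit that a count of 0 allows, would be 0.0461 to 0.0586 CPM; such limits cover counting error only), and the second Aldoa row was at most 0.137 CPM. Neither was tested.

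The cells were CD8+ T cells from mouse spleen. Cells of Dusp2fl/fl-E8I-cre+/- mice, called cKO here (3 mice), were set against cells of Dusp2fl/fl-E8I-cre-/- mice, called control here (2 mice). Dusp2 encodes a phosphatase of MAP kinases, and E8I-cre is driven by an enhancer of the Cd8a locus that is active in mature CD8+ T cells. Both groups carry the floxed alleles and only the cKO group carries Cre, so the presence of Cre and the loss of Dusp2 cannot be told apart. From each mouse, 1 library came from cells kept with anti-CD3/CD28 beads for 24 h (activated) and 1 from cells rested over the same 24 h in the same medium without beads, which makes 10 libraries. The time without beads means that rested cells had been cultured too. cKO mice 1 and 2 and control mouse 1 were male, and cKO mouse 3 and control mouse 2 were female. The labels give no ages.

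The titles of the activated and the rested library of cKO mouse 3 go against their other labels, and both were grouped by genotype label, treatment label and library name. Dusp2 was measured at 56.3, 46.4 and 52.6 CPM in activated cKO cells and 292 and 299 CPM in activated control cells, and at 24.98, 24.8 and 28.1 CPM in rested cKO cells and 87.8 and 97.4 CPM in rested control cells, so the cKO libraries, those of mouse 3 among them, lay below the control libraries in both states. Transcripts of the CD8 T cell list (Cd3d, Cd8a and 6 others) summed to 3275 to 3491 CPM in activated and 4125 to 4412 CPM in rested libraries. The B cell list summed to 3.35 to 3.58 CPM in activated and 5.25 to 6.47 CPM in rested libraries, with Pax5, a defining factor of B cells, at 0 to 0.0690 CPM. The myeloid list summed to 10.9 to 17.9 CPM. The erythroid and platelet list summed to 16.6 to 23.2 CPM in activated and 25.2 to 29.5 CPM in rested libraries. The CD4 T cell list moved with activation, at 14.7 to 34.9 CPM in activated and 3.49 to 10.1 CPM in rested libraries, and 2 of its 4 genes rose by at least 2-fold in both genotypes. The list of NK and innate-like lymphocytes did not overlap between genotypes in activated cells and did in rested cells. It summed to 121.7, 94.7 and 94.3 CPM in activated cKO against 80.7 and 64.6 CPM in activated control cells. In rested cells it summed to 97.5, 71.2 and 64.6 CPM in cKO against 68.0 and 51.9 CPM in control cells. Of its 9 tested genes 0 were called between genotypes in either state, where 0.0422% of all tested genes were. In edgeR, 8 were higher in activated and 7 in rested cKO cells, with median log2 fold changes of 0.75 and 0.736. In each state 4 of the 9 had an unadjusted p below 0.05, against 6.02% of all tested genes in activated and 4.13% in rested cells. In bulk RNA, fewer cells of a type and less RNA per cell cannot be told apart. The part of these markers in the values below was not tested.

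As background, glycolysis splits glucose into pyruvate in the cytosol and yields ATP quickly. Lactate dehydrogenase turns pyruvate into lactate, which leaves the cell through monocarboxylate carriers, whereas pyruvate dehydrogenase sends pyruvate into the mitochondrial cycle unless its kinases switch it off. The pentose phosphate pathway branches off after hexokinase and supplies NADPH and the ribose of nucleotides. T cells are known to take up more glucose and to release lactate soon after activation, even where oxygen is plentiful.

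Promoter sequences are shown for 4 members whose transcripts changed by more than 2-fold with activation in both genotypes, because letters bound by known regulators of glycolysis occur in them. They are RefSeq windows of mouse build GRCm38.p6, from 250 bases before to 50 after a gene's start, in lower case and 5′ to 3′ on the gene's strand. Capitals mark CACGTG, the E-box bound by MYC with MAX, and ACGTG or GCGTG, the core of the hypoxia response element bound by HIF, on either strand (CACGTG holds ACGTG, and the reverse strand reads CACGT or CACGC). The Slc16a1 and Ldha windows hold E-boxes, the Hk2 window holds ACGTG without an E-box, and the Pdk1 window, of a gene that fell, holds GCGTG. E-boxes were not confined to members that rose, as the counts after the sequences show.
Ldha, chr7:46845554-46845853, plus strand: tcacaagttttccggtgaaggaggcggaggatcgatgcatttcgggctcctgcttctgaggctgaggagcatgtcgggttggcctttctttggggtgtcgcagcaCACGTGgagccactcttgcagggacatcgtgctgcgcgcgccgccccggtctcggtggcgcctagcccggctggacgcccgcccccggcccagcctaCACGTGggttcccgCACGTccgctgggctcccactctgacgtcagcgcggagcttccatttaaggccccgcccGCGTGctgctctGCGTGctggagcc
Slc16a1, chr3:104638414-104638713, plus strand: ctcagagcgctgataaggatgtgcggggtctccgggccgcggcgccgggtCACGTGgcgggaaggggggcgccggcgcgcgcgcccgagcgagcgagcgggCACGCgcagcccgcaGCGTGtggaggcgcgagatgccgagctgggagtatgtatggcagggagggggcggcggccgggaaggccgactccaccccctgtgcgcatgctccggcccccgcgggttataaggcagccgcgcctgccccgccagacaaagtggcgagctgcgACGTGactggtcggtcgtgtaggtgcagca
Hk2, chr6:82774405-82774704, minus strand: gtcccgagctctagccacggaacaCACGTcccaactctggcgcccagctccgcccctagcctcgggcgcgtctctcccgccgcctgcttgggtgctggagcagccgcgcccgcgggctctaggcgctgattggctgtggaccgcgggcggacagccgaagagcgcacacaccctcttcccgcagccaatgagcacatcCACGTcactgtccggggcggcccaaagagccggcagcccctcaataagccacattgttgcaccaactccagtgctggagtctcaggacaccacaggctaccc
Pdk1, chr2:71872974-71873273, plus strand: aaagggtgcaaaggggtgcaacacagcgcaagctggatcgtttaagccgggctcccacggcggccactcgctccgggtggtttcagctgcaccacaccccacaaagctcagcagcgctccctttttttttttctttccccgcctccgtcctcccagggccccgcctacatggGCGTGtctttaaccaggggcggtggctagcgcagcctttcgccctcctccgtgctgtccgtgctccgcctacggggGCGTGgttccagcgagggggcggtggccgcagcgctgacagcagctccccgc

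RefSeq windows were matched for 37 of the 38 genes, with 1 to 4 windows a gene, and a gene was counted if any of its windows held the letters. ACGTG occurred for 20 of 37 members (54.1%), against 28.8% of 10837 tested genes with a window and 21.8% of all 27025 genes with a window. GCGTG occurred for 26 members (70.3%), against 54.0% and 35.2%. CACGTG occurred for 6 members (16.2%), against 11.4% and 8.09%. Among members that changed with activation in cKO cells, ACGTG was in 14 of 22 that rose and in 5 of 10 that fell and had a window, and CACGTG was in 3 of each. A match is only a run of letters in this window, and binding was not measured.

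Activation raised most of the pathway in both genotypes, from hexokinase 2 through lower glycolysis to lactate export and the pentose phosphate branch, and lowered a defined minority that included Hk1, Slc2a3, Pdk1 and Pdk2. In cKO cells 22 of the 37 tested members rose and 11 fell, where 31.5% of all tested genes rose, 31.9% fell and 63.4% did either. In control cells 22 rose and 10 fell, against 28.5%, 27.6% and 56.1% of all tested genes. The median log2 fold change of the members was 0.56 in cKO and 0.50 in control cells, against -0.0079 and -0.0023 over all tested genes. A change of at least 2-fold was called upward for 13 members in each genotype (14.2% of all genes in cKO and 13.1% in control cells) and downward for 2 members (10.3% and 8.69%), Pdk1 and Pdk2. Levels are counts scaled to library size (CPM). A change is called in edgeR's quasi-likelihood test, with a term for sex, when its p adjusted by Benjamini and Hochberg over all tested genes is below 0.05. Errors of log2 fold changes are SE.

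The members took 0.585%, 0.561% and 0.705% of all counts in activated against 0.360%, 0.362% and 0.385% in rested cKO cells, and 0.529% and 0.613% in activated against 0.358% and 0.356% in rested control cells. Every activated library thus lay above every rested one, and the activated libraries spread more widely. Their summed level was 6030 ± 775 CPM in activated against 3778 ± 118 CPM in rested cKO cells (SD, n = 3), and 5585 ± 621 CPM in activated against 3658 ± 27.0 CPM in rested control cells (SD, n = 2). Most of that increase came from the 11 lower glycolysis genes, which summed to 3057 ± 562 CPM in activated against 1565 ± 113 CPM in rested cKO cells, and to 2794 ± 441 CPM in activated against 1482 ± 13.5 CPM in rested control cells. Transcripts of glucose transporters summed to 109.8 to 114 CPM in activated and 114 to 122 CPM in rested libraries of cKO mice, and these ranges overlapped. In control mice they summed to 107.1 and 111.5 CPM in activated and 119.3 and 117.9 CPM in rested libraries, slightly lower after activation without overlap.

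**Figure D1:**
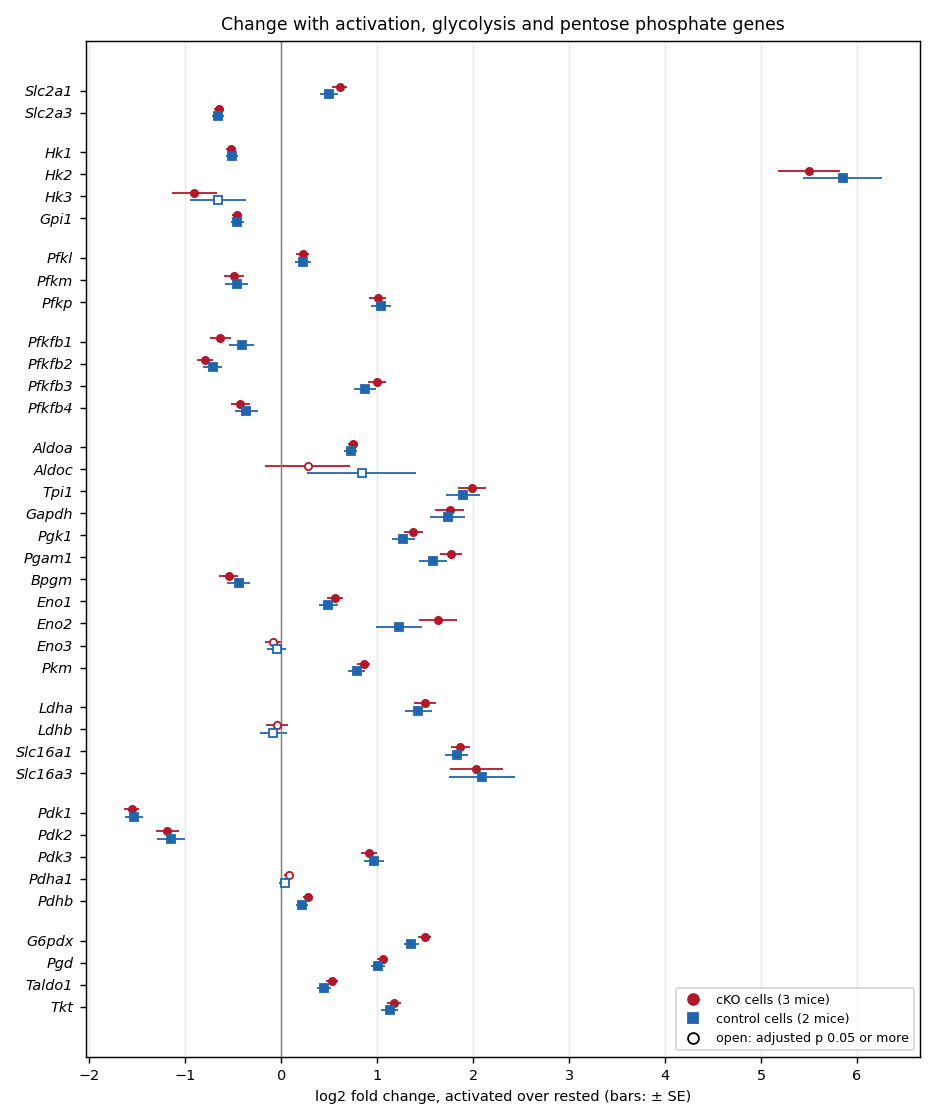
Log2 fold change with activation for the 37 tested genes, grouped by role, in cKO cells (red circles, 3 mice) and control cells (blue squares, 2 mice); bars are SE and open symbols did not reach an adjusted p of 0.05. Hk2 stands far to the right in both genotypes, at 5.50 in cKO and 5.85 in control cells, and Pdk1 and Pdk2 are farthest to the left.

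Per transcript length, in the authors' FPKM, the most abundant members of activated cells were Aldoa (357 ± 30.5 FPKM in cKO and 332 ± 16.5 FPKM in control cells), Ldha, Gapdh, Pkm, Pgk1 and Eno1 (mean ± SD). Ldha (179 ± 38.8 FPKM in activated cKO cells), Gapdh (150.3 ± 41.2 FPKM) and Pkm (139 ± 25.8 FPKM) followed. Ldha lay above both Gapdh and Pkm in each of the 5 activated libraries, while Gapdh and Pkm changed order between libraries. In rested cells the order was Aldoa (203 ± 13.2 FPKM in cKO and 192 ± 0.456 FPKM in control cells), Gpi1 (80.8 ± 1.29 and 77.1 ± 4.23 FPKM), Pkm (72.7 ± 6.77 and 71.7 ± 3.45 FPKM), Ldha (60.00 ± 0.206 and 58.5 ± 0.801 FPKM), Eno1 and Taldo1. At the low end, Aldoc, Slc16a3 and Eno2 were under 1 FPKM in every group, Hk2 was at 0.188 ± 0.0612 FPKM in rested cKO and 0.132 ± 0.0428 FPKM in rested control cells, and Pdk4 was at 0.

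The 2 glucose transporters went opposite ways. Slc2a1, which encodes GLUT1, the main carrier of activated T cells, was at 64.4, 60.1 and 68.6 CPM in activated against 46.7, 39.9 and 39.8 CPM in rested cKO cells, and 58.1 and 65.4 CPM in activated against 45.00 and 42.3 CPM in rested control cells. Slc2a3, which encodes the high-affinity carrier GLUT3, was at 47.3, 49.8 and 45.9 CPM in activated against 75.1, 74.3 and 75.04 CPM in rested cKO cells, and 48.99 and 46.03 CPM in activated against 74.3 and 75.5 CPM in rested control cells. Neither gene's activated libraries overlapped its rested ones. The log2 fold change of Slc2a1 was 0.61 ± 0.08 in cKO cells (adjusted p = 1.11e-05) and 0.50 ± 0.09 in control cells (adjusted p = 0.000495), and that of Slc2a3 was -0.65 ± 0.05 in cKO cells (adjusted p = 1.17e-07) and -0.66 ± 0.06 in control cells (adjusted p = 1.27e-06).

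Hexokinases trap glucose in the cell as glucose phosphate, and Hk2 had the largest log2 fold change of the 37 members. Hk2, the inducible isozyme of growing cells, was at 62.3, 38.3 and 56.3 CPM in activated against 1.31, 1.43 and 0.719 CPM in rested cKO cells, and 40.8 and 53.3 CPM in activated against 0.995 and 0.621 CPM in rested control cells. Hk1, the isozyme most tissues express, was at 90.4, 101 and 97.8 CPM in activated against 141, 137 and 138 CPM in rested cKO cells, and 100.5 and 95.8 CPM in activated against 143 and 138 CPM in rested control cells. Every activated library lay above every rested one for Hk2 and below every rested one for Hk1. The log2 fold change of Hk2 was 5.50 ± 0.33 in cKO cells (adjusted p = 5.08e-06) and 5.85 ± 0.41 in control cells (adjusted p = 2.06e-05), a fold of 45.3 and 57.7, while that of Hk1 was -0.53 ± 0.05 in cKO cells (adjusted p = 1.24e-06) and -0.52 ± 0.07 in control cells (adjusted p = 1.57e-05). As a share of hexokinase FPKM, Hk2 made up 42.9% ± 7.32 in activated against 1.14% ± 0.372 in rested cKO cells, and 40.1% ± 5.43 in activated against 0.796% ± 0.233 in rested control cells (mean ± SD).

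Hk3, an isozyme of myeloid cells, was low, at 0.8997, 0.862 and 0.454 CPM in activated against 1.57, 1.32 and 1.16 CPM in rested cKO cells, and 0.886 and 0.634 CPM in activated against 1.66 and 0.816 CPM in rested control cells, and its states overlapped in control mice. It fell in cKO cells, with a log2 fold change of -0.91 ± 0.24 (adjusted p = 0.00421), and was at -0.66 ± 0.29 in control cells (adjusted p = 0.0672). Unc5a, which overlaps it and held 721% as many counts, had log2 fold changes of -1.20 in cKO and -1.23 in control cells. Gpi1, the isomerase that follows hexokinase, was at 367, 387 and 407 CPM in activated against 528, 532 and 539 CPM in rested cKO cells, and 369 and 372 CPM in activated against 531 and 489 CPM in rested control cells. It fell, with a log2 fold change of -0.46 ± 0.05 in cKO cells (adjusted p = 5.11e-06) and -0.46 ± 0.07 in control cells (adjusted p = 5.07e-05), with no overlap between the states, although it was among the most abundant members.

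Phosphofructokinase commits sugar to glycolysis, and its 3 isozymes moved apart. Pfkp, the platelet-type isozyme, was at 499.7, 387 and 329 CPM in activated against 217, 202 and 183 CPM in rested cKO cells, and 399 and 298 CPM in activated against 194 and 145 CPM in rested control cells. Pfkl, the liver-type isozyme, was at 67.5, 67.5 and 85.96 CPM in activated against 61.6, 62.5 and 64.4 CPM in rested cKO cells, and 66.4 and 80.3 CPM in activated against 61.1 and 63.9 CPM in rested control cells. Pfkm, the muscle-type isozyme, was at 6.79, 5.95 and 7.62 CPM in activated against 8.65, 8.86 and 11.2 CPM in rested cKO cells, and 6.49 and 7.38 CPM in activated against 8.97 and 10.2 CPM in rested control cells. No activated library overlapped a rested one for any of the 3. Pfkp rose with a log2 fold change of 1.00 ± 0.09 in cKO cells (adjusted p = 9.06e-07) and 1.04 ± 0.11 in control cells (adjusted p = 6.12e-06), and Pfkm fell with -0.49 ± 0.10 in cKO cells (adjusted p = 0.000648) and -0.47 ± 0.12 in control cells (adjusted p = 0.00501). The control call of Pfkm was lost without either control mouse (adjusted p = 0.0695 and 0.0905). Pfkl rose only slightly, by 0.22 ± 0.07 in cKO cells (adjusted p = 0.00938) and 0.23 ± 0.08 in control cells (adjusted p = 0.0281), and this call was lost in cKO cells without mouse 3 (0.12) and in control cells without mouse 2 (0.13), with each mouse as a block (0.23) or with a sex effect in each state (0.095). It was lost in both genotypes without a sex term (adjusted p = 0.0605 in cKO and 0.126 in control cells). Pitrm1, which overlaps Pfkp, rose too (log2 fold change 0.86 and 0.95), and Senp1, which overlaps Pfkm, held 1350% of its counts; whether the authors counted by strand is not given in the sources used here.

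The Pfkfb enzymes make and break the sugar phosphate that activates phosphofructokinase. Pfkfb3, the isozyme weighted towards making it, was at 56.05, 52.2 and 70.1 CPM in activated against 31.1, 28.3 and 29.6 CPM in rested cKO cells, and 51.2 and 57.4 CPM in activated against 31.5 and 27.7 CPM in rested control cells. Its log2 fold change was 1.00 ± 0.10 in cKO cells (adjusted p = 1.51e-06) and 0.87 ± 0.12 in control cells (adjusted p = 4.15e-05), and it was the one member of the family that rose. Pfkfb1 was at 5.86, 6.002 and 5.18 CPM in activated against 8.55, 8.66 and 9.16 CPM in rested cKO cells, and 6.47 and 6.08 CPM in activated against 8.95 and 7.79 CPM in rested control cells. Pfkfb2 was at 16.2, 15.8 and 14.1 CPM in activated against 27.7, 25.3 and 26.6 CPM in rested cKO cells, and 19.2 and 14.7 CPM in activated against 30.5 and 25.2 CPM in rested control cells. Pfkfb4 was at 6.56, 7.16 and 7.299 CPM in activated against 9.46, 9.36 and 9.48 CPM in rested cKO cells, and 6.76 and 7.26 CPM in activated against 8.23 and 9.86 CPM in rested control cells. These 3 fell in both genotypes without overlap between the states. Their log2 fold changes in cKO cells were -0.63 ± 0.11 for Pfkfb1 (adjusted p = 0.000132), -0.80 ± 0.08 for Pfkfb2 (adjusted p = 1.69e-06) and -0.43 ± 0.10 for Pfkfb4 (adjusted p = 0.00172). In control cells they were -0.41 ± 0.13 (adjusted p = 0.0142), -0.72 ± 0.10 (adjusted p = 4.07e-05) and -0.37 ± 0.12 (adjusted p = 0.0193), in the same order. The control call of Pfkfb1 was lost without either control mouse (adjusted p = 0.188 and 0.101) and with a sex effect in each state (adjusted p = 0.0638). That of Pfkfb4 was lost without either control mouse (adjusted p = 0.0742 and 0.298), with no low-count filter, in both limma fits and with a sex effect in each state (adjusted p = 0.0568 to 0.0677). Yod1 overlaps Pfkfb2, held 159% as many counts and fell with it (log2 fold change -0.72 in cKO and -0.63 in control cells), as did Gm29427, which held 47.6% (-0.85 and -0.65). Apex2 overlaps Pfkfb1, held 157% as many counts and was not called (0.13 and 0.04).

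Of the 11 lower glycolysis genes, which carry the triose phosphates to pyruvate, 8 rose and 1 fell in each genotype. Tpi1, which interconverts the triose phosphates, was at 73.4, 64.3 and 122 CPM in activated against 19.4, 20.4 and 24.2 CPM in rested cKO cells, and 59.2 and 89.8 CPM in activated against 19.3 and 19.7 CPM in rested control cells. Its log2 fold change was 1.98 ± 0.15 in cKO cells (adjusted p = 2.85e-06) and 1.90 ± 0.18 in control cells (adjusted p = 2.25e-05). Pgam1, the phosphoglycerate mutase, was at 43.5, 37.4 and 57.5 CPM in activated against 13.3, 13.5 and 13.5 CPM in rested cKO cells, and 33.3 and 45.4 CPM in activated against 13.2 and 12.8 CPM in rested control cells. Its log2 fold change was 1.77 ± 0.12 in cKO cells (adjusted p = 1.06e-07) and 1.58 ± 0.14 in control cells (adjusted p = 2.48e-06). For both genes the lowest activated library was more than 2 times the highest rested one.

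Pgk1, whose enzyme makes the pathway's first ATP, was at 196, 176 and 259.6 CPM in activated against 78.4, 79.5 and 83.3 CPM in rested cKO cells, and 159 and 211 CPM in activated against 76.9 and 74.3 CPM in rested control cells. Its log2 fold change was 1.37 ± 0.10 in cKO cells (adjusted p = 4.54e-07) and 1.27 ± 0.12 in control cells (adjusted p = 6.58e-06). Aldoa, which splits the hexose bisphosphate, was at 936, 1002 and 1112 CPM in activated against 576, 593 and 645 CPM in rested cKO cells, and 909 and 985 CPM in activated against 575 and 570.4 CPM in rested control cells. Pkm, which makes pyruvate, was at 617, 593 and 827 CPM in activated against 344, 365 and 407 CPM in rested cKO cells, and 554 and 724 CPM in activated against 356 and 379 CPM in rested control cells. Aldoa and Pkm rose by a smaller step from a high level and still without overlap, with log2 fold changes of 0.75 ± 0.06 in cKO cells (adjusted p = 6.23e-08) and 0.72 ± 0.07 in control cells (adjusted p = 1.07e-06) for Aldoa and 0.86 ± 0.07 in cKO cells (adjusted p = 1.4e-07) and 0.78 ± 0.08 in control cells (adjusted p = 3.67e-06) for Pkm. The counts are per gene, so the Pkm isoforms cannot be told apart.

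Gapdh, whose enzyme makes the pathway's NADH, was at 548, 477 and 798 CPM in activated against 165, 181 and 186 CPM in rested cKO cells, and 450.4 and 631 CPM in activated against 165 and 154 CPM in rested control cells, with a log2 fold change of 1.75 ± 0.15 in cKO cells (adjusted p = 1.15e-05) and 1.73 ± 0.18 in control cells (adjusted p = 6.4e-05). The gene is a common reference for normalising transcript levels, and here its activated level was more than 2 times its rested level in every mouse. Eno1, the main enolase, had log2 fold changes of 0.56 ± 0.08 in cKO and 0.49 ± 0.10 in control cells, and Eno2 had 1.63 ± 0.20 and 1.22 ± 0.24. Eno2 was low, at 2.88 to 4.71 CPM in activated and 0.905 to 1.59 CPM in rested libraries. Bpgm, which diverts an intermediate to bisphosphoglycerate, was the member of this group that fell, with log2 fold changes of -0.55 ± 0.10 in cKO and -0.44 ± 0.12 in control cells. Eno3, the muscle enolase, was at -0.09 ± 0.08 and -0.05 ± 0.10, and neither value was called.

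Aldoc was below 1 CPM on average in every group, at 0.442, 0.552 and 1.18 CPM in activated against 0.181, 0.8003 and 0.738 CPM in rested cKO cells, and 0.619 and 0.634 CPM in activated against 0.3601 and 0.337 CPM in rested control cells. Its states overlapped in cKO mice and not in control mice. Related copies of these genes can share reads with them. Among 16 such rows of the table, Pgam1-ps2 held 6.44% to 16.1% of the Pgam1 count, Eno1b 1.45% to 2.27% of the Eno1 count and Pgk1-rs7 0.575% to 1.75% of the Pgk1 count, so how reads were split for Pgam1 is uncertain at about that size.

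**Figure D2:**
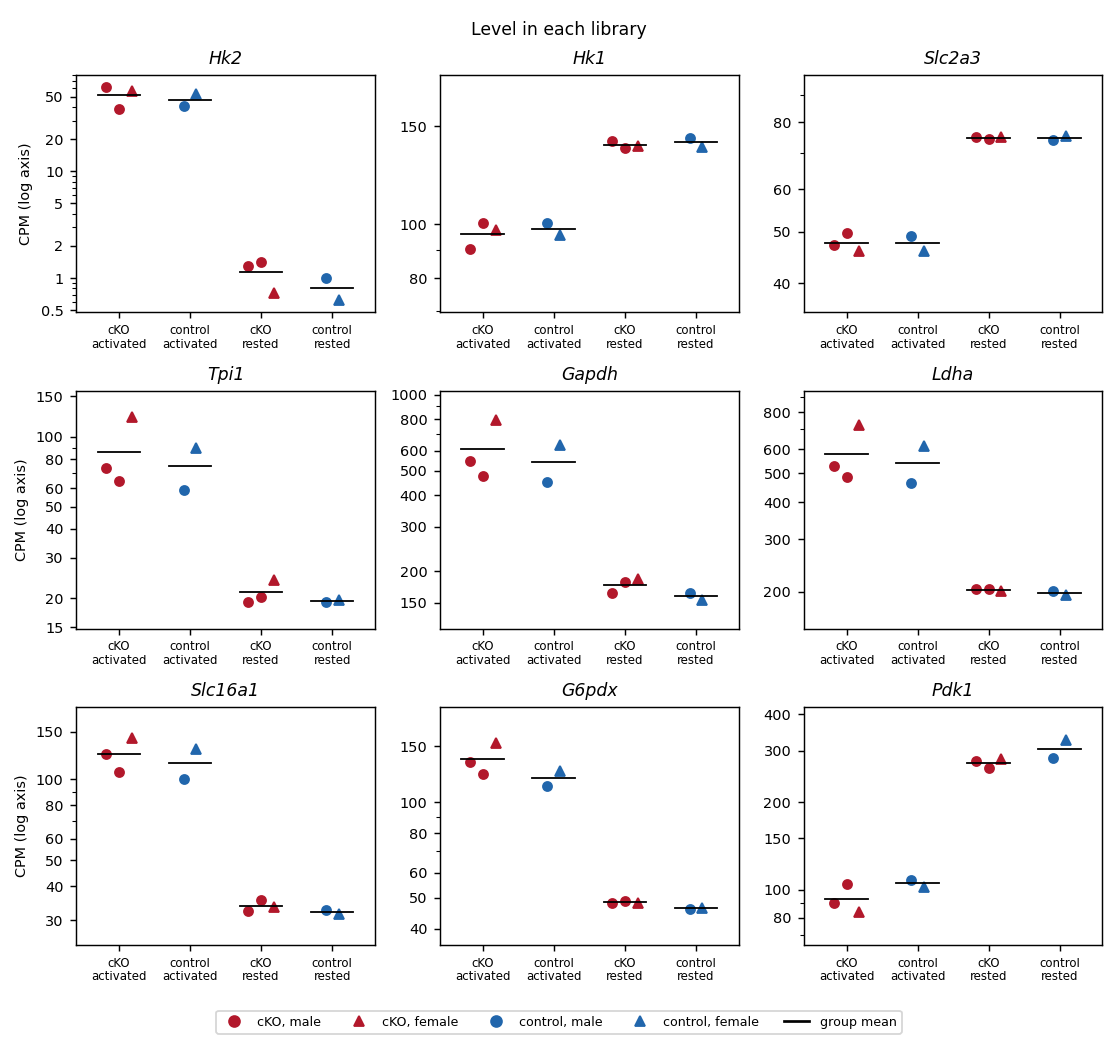
CPM in each of the 10 libraries (log axis) for 9 genes, by group, with circles for males, triangles for females, red for cKO, blue for control and lines for group means. Activated and rested libraries do not overlap in any panel, cKO and control libraries of a state lie close together, and for Tpi1, Gapdh and Ldha the female libraries are highest after activation.

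Lactate dehydrogenase and its carriers rose strongly, apart from the B subunit. Ldha was at 528, 487 and 725 CPM in activated against 204, 204 and 201 CPM in rested cKO cells, and 465 and 615 CPM in activated against 201 and 196 CPM in rested control cells. Slc16a1, which encodes the lactate carrier MCT1, was at 124, 106 and 142 CPM in activated against 32.4, 35.7 and 33.6 CPM in rested cKO cells, and 100.4 and 129.5 CPM in activated against 32.7 and 31.5 CPM in rested control cells. Slc16a3, which encodes the export carrier MCT4, was under 1 FPKM in every group, at 2.11, 3.12 and 4.41 CPM in activated against 0.341, 0.8003 and 1.22 CPM in rested cKO cells, and 2.68 and 4.14 CPM in activated against 0.772 and 0.7805 CPM in rested control cells. All 3 were higher in every activated library than in any rested one. Log2 fold changes were 1.49 ± 0.11 in cKO cells (adjusted p = 1.53e-06) and 1.43 ± 0.14 in control cells (adjusted p = 1.43e-05) for Ldha, 1.87 ± 0.10 in cKO cells (adjusted p = 1.38e-08) and 1.83 ± 0.12 in control cells (adjusted p = 1.74e-07) for Slc16a1 and 2.03 ± 0.28 in cKO cells (adjusted p = 2.81e-05) and 2.09 ± 0.34 in control cells (adjusted p = 0.000166) for Slc16a3.

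Ldhb, the subunit of tissues that burn lactate, was at 6.02, 5.59 and 8.04 CPM in activated against 6.06, 6.87 and 7.21 CPM in rested cKO cells, and 6.29 and 7.33 CPM in activated against 6.81 and 7.61 CPM in rested control cells, and its states overlapped. Its log2 fold change was -0.05 ± 0.11 in cKO cells (adjusted p = 0.735) and -0.08 ± 0.14 in control cells (adjusted p = 0.635), with neither called, and its sign in cKO cells depended on the scaling (0.02 with total counts). Csnk1d overlaps Slc16a3 and held 11308 to 17273 counts a library against the few of Slc16a3, so the Slc16a3 values can depend on how overlapping reads were assigned, which was not tested. Csnk1d itself had a log2 fold change of 0.12 in cKO and 0.09 in control cells.

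Among the kinases that switch off pyruvate dehydrogenase, Pdk1 and Pdk2 fell and Pdk3 rose, and Pdk1 stayed above Pdk3 in the mean FPKM of activated cells of both genotypes. Pdk1 was at 89.8, 104 and 83.9 CPM in activated against 277, 262 and 280.5 CPM in rested cKO cells, and 108 and 102 CPM in activated against 284 and 326 CPM in rested control cells. Pdk2 was at 7.74, 9.97 and 6.84 CPM in activated against 18.3, 18.3 and 19.3 CPM in rested cKO cells, and 8.697 and 8.74 CPM in activated against 17.9 and 20.8 CPM in rested control cells. Pdk3 was at 27.01, 25.8 and 33.6 CPM in activated against 14.5, 15.2 and 16.1 CPM in rested cKO cells, and 25.7 and 30.9 CPM in activated against 14.7 and 14.1 CPM in rested control cells. Pdk1 and Pdk2 were lower in every activated library than in any rested one, and Pdk3 was higher. The log2 fold change of Pdk1 was -1.56 ± 0.08 in cKO cells (adjusted p = 4.57e-09) and -1.53 ± 0.10 in control cells (adjusted p = 6.46e-08). That of Pdk2 was -1.19 ± 0.12 in cKO cells (adjusted p = 1.6e-06) and -1.15 ± 0.15 in control cells (adjusted p = 1.99e-05), and that of Pdk3 was 0.91 ± 0.08 in cKO cells (adjusted p = 4.65e-07) and 0.96 ± 0.10 in control cells (adjusted p = 3.06e-06). Pdk1 is known in other cells as a HIF target that rises under hypoxia. Within the kinases' FPKM, Pdk1 held 46.3% ± 4.53 in activated against 74.8% ± 0.826 in rested cKO cells and 49.6% ± 3.61 in activated against 76.9% ± 1.01 in rested control cells. Pdk3 held 43.7% ± 6.28 in activated against 12.7% ± 0.591 in rested cKO cells and 40.3% ± 3.91 in activated against 11.1% ± 1.27 in rested control cells.

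Subunits of the enzyme itself moved little. Pdha1, the catalytic alpha subunit, was at 129, 126 and 129.7 CPM in activated against 122, 124 and 119 CPM in rested cKO cells, and 122 and 131 CPM in activated against 124 and 123 CPM in rested control cells. Its log2 fold change was 0.07 ± 0.05 in cKO cells (adjusted p = 0.196) and 0.04 ± 0.06 in control cells (adjusted p = 0.65), with neither called. In cKO cells it was called at 0.141 when scaled by total counts (adjusted p = 0.0197) and at 0.139 and 0.14 in the limma fits (adjusted p = 0.0174 and 0.018). Pdhb, the beta subunit, was at 78.1, 78.5 and 79.1 CPM in activated against 66.4, 65.2 and 63.1 CPM in rested cKO cells, and 71.6 and 79.6 CPM in activated against 62.3 and 67.8 CPM in rested control cells. It rose slightly, with a log2 fold change of 0.28 ± 0.06 in cKO cells (adjusted p = 0.000573) and 0.22 ± 0.07 in control cells (adjusted p = 0.0142), and in control cells the call was lost without either control mouse (0.23 and 0.21).

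All 4 pentose phosphate enzymes rose in both genotypes. G6pdx, the rate-limiting dehydrogenase, was at 134, 123 and 153 CPM in activated against 47.99, 48.9 and 48.3 CPM in rested cKO cells, and 112 and 126 CPM in activated against 46.2 and 46.6 CPM in rested control cells. Pgd, the next NADPH-making step, was at 113, 112 and 138 CPM in activated against 54.1, 53.1 and 67.5 CPM in rested cKO cells, and 98.2 and 117 CPM in activated against 52.3 and 54.03 CPM in rested control cells. Tkt, the transketolase of the non-oxidative arm, was at 292, 276 and 351 CPM in activated against 136, 134 and 135 CPM in rested cKO cells, and 258 and 334 CPM in activated against 134 and 135 CPM in rested control cells. Rested libraries of G6pdx and Tkt were tightly grouped, and no activated library overlapped them. Log2 fold changes were 1.49 ± 0.07 in cKO cells (adjusted p = 6.24e-10) and 1.35 ± 0.08 in control cells (adjusted p = 1.84e-08) for G6pdx, 1.06 ± 0.06 in cKO cells (adjusted p = 5.01e-09) and 1.01 ± 0.07 in control cells (adjusted p = 1.03e-07) for Pgd and 1.17 ± 0.08 in cKO cells (adjusted p = 2.47e-08) and 1.13 ± 0.09 in control cells (adjusted p = 4.27e-07) for Tkt.

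Taldo1, the transaldolase that works beside Tkt, was at 121, 132 and 157 CPM in activated against 90.9, 90.1 and 103 CPM in rested cKO cells, and 111 and 129.8 CPM in activated against 87.7 and 89.1 CPM in rested control cells. It rose with a log2 fold change of 0.53 ± 0.06 in cKO cells (adjusted p = 4.26e-06) and 0.44 ± 0.07 in control cells (adjusted p = 0.000189), the smallest rise of the 4. Ikbkg overlaps G6pdx and held 109% of its counts, but it fell (log2 fold change -0.52 in cKO cells).

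Ratios between isozymes within a library were compared between the activated and the rested library of each mouse for 14 pairs chosen by function. They depend on library scaling only through the added 0.05 FPKM, which matters where an isozyme is near that level. In 11 pairs all 5 mice moved the same way. With 5 mice the exact two-sided sign-flip permutation test cannot go below p = 0.0625 (0.0795 adjusted over the 14 pairs), so none can pass 0.05. The change in the log2 ratio of FPKM + 0.05 was 5.80 ± 0.60 for Hk2 over Hk1 (mean ± SD over 5 mice), and 4.195 with a pseudocount of 0.5. With 0.05 the change was 2.09 ± 0.37 for Pdk3 over Pdk2 and 1.33 ± 0.24 for Pfkfb3 over Pfkfb4. It was -1.22 ± 0.20 for Slc2a3 over Slc2a1, -1.49 ± 0.05 for Pfkm over Pfkp, -0.79 ± 0.24 for Pfkl over Pfkp and -1.53 ± 0.17 for Ldhb over Ldha. Smaller shifts were 0.77 ± 0.29 for Eno2 over Eno1 (0.106 with a pseudocount of 0.5), -0.60 ± 0.10 for Eno3 over Eno1, -0.38 ± 0.08 for Pdk1 over Pdk2 and 0.19 ± 0.05 for Pdhb over Pdha1. The mice did not all move the same way for Hk3 over Hk1, Aldoc over Aldoa and Slc16a3 over Slc16a1 (-0.08 ± 0.21). For that last pair of carriers the value depended on the pseudocount and was -1.044 with 0.5.

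**Figure D3:**
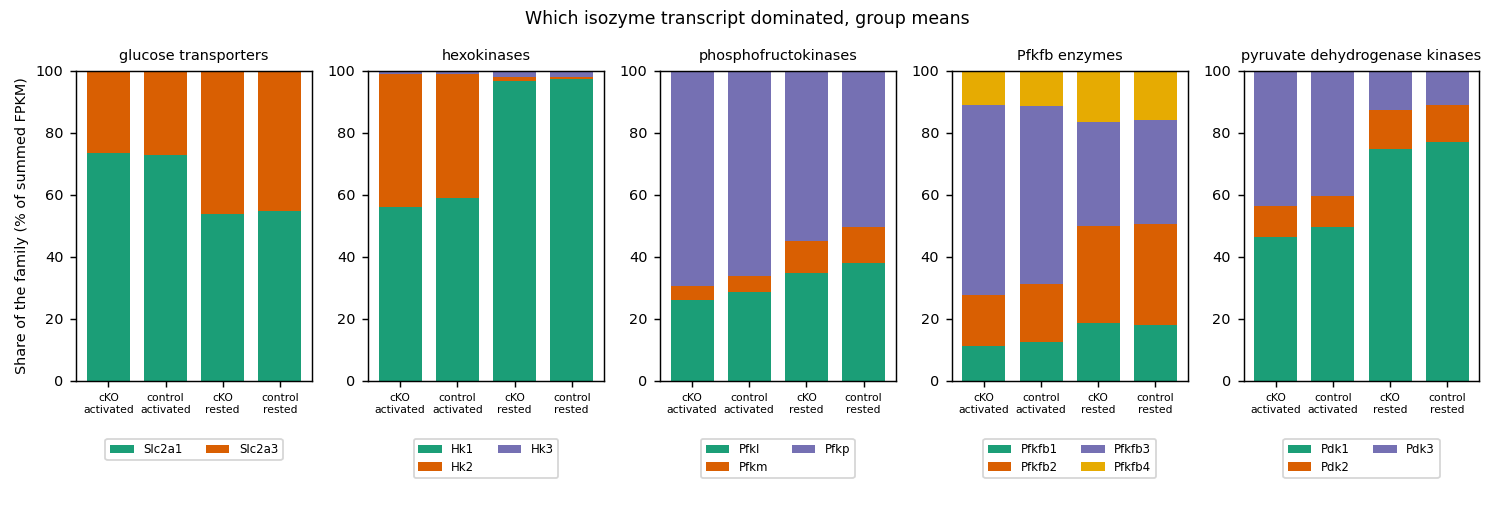
Share of each isozyme in the summed FPKM of its family (percent, bars start at 0, group means over 3 cKO or 2 control mice), for 5 families in the 4 groups. Activated cells of both genotypes differ from rested ones in every family, with Hk2 at 42.9% and 40.1% of hexokinase FPKM in activated cKO and control cells, and the shares of cKO and control cells lie close together within a state.

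Genes around the pathway were counted from lists drawn up by function, beside 31.5% of all tested genes rising and 31.9% falling in cKO cells and 28.5% and 27.6% in control cells. Of 10 tested genes of glycerol phosphate, serine synthesis and redox shuttles, 9 rose and 1 fell in cKO cells (8 and 1 in control cells). Psat1, an enzyme that makes serine from a glycolytic intermediate, was at 298, 228 and 207 CPM in activated against 9.397, 9.33 and 7.65 CPM in rested cKO cells, and 234 and 225 CPM in activated against 8.51 and 7.06 CPM in rested control cells, with a log2 fold change of 4.79 ± 0.11 in cKO cells (adjusted p = 2.37e-11) and 4.89 ± 0.13 in control cells (adjusted p = 1.86e-10). Got1 (log2 fold change 2.10 ± 0.07 in cKO and 2.18 ± 0.09 in control cells) and Phgdh (2.12 ± 0.08 and 2.00 ± 0.10), which work in the malate-aspartate shuttle and at the entry to serine synthesis, rose as well. Among 10 other pentose phosphate genes 6 rose and 2 fell in cKO cells (6 and 3 in control cells). Prps1, which turns ribose phosphate into the nucleotide precursor, rose by 0.96 ± 0.06 and 0.89 ± 0.08 and Rpe, an epimerase, by 0.84 ± 0.07 and 0.84 ± 0.09, while H6pd, the dehydrogenase of the endoplasmic reticulum, fell (-1.29 ± 0.07 and -1.31 ± 0.08).

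Of 7 tested genes of other hexose transport and upper glycolysis, 3 rose and 2 fell in each genotype. G6pc3 rose by 0.72 ± 0.10 in cKO and 0.69 ± 0.12 in control cells, Adpgk, an ADP-dependent glucokinase, by 0.37 ± 0.05 and 0.29 ± 0.07, and Slc2a8, a hexose carrier, fell (-0.81 ± 0.11 and -0.90 ± 0.14). Of 14 genes of pyruvate entry and lactate carriage, 6 rose and 3 fell in cKO cells (5 and 4 in control cells). Dld, a subunit of pyruvate dehydrogenase, rose by 0.68 ± 0.06 and 0.56 ± 0.07, Emb, a partner protein of the carriers, fell (-1.04 ± 0.06 and -1.14 ± 0.08), and Pdpr, a regulator of the dehydrogenase's phosphatase, fell (-0.88 ± 0.06 and -0.67 ± 0.07). Of 15 genes of glycogen, galactose and hexosamine metabolism 7 rose and 4 fell in each genotype. Gnpnat1 (1.31 ± 0.07 and 1.25 ± 0.09) and Uap1 (0.77 ± 0.07 and 0.80 ± 0.08), both of hexosamine synthesis, rose.

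Of 16 regulators of glycolysis, 6 rose and 7 fell in cKO cells (5 and 7 in control cells). Irf4, a transcription factor induced by the T cell receptor, had log2 fold changes of 7.07 ± 0.13 in cKO and 7.70 ± 0.17 in control cells. Hif1a, the oxygen-regulated factor, rose by 1.15 ± 0.07 and 1.14 ± 0.09, and Tfeb, a factor of lysosome genes, fell (-1.24 ± 0.09 and -1.15 ± 0.11). All 6 markers known to rise with activation rose and all 4 known to fall fell in both genotypes. The markers were listed with earlier results of these data known, so this was no open test. Irf4, Myc and Txnip are in both the marker and the regulator lists. Cd69, an early activation antigen, rose by 4.43 ± 0.08 and 4.55 ± 0.10.

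Between genotypes no member was called in either state. In activated cells 0 of 37 differed, where 0.0422% of all tested genes did, and 4 members had an unadjusted p below 0.05 in edgeR, as 6.02% of all tested genes did (DESeq2 called 0). Their log2 fold changes were positive, meaning higher in cKO cells, for 29 of 37, with a median of 0.08 against 0.0026 over all tested genes. The positive share was 26 of 37 among males (cKO mice 1 and 2 against control mouse 1). It was 29 of 37 among females (cKO mouse 3 against control mouse 2), and 23 were positive in both. The members share these few libraries, so they are not independent replicates. In the fit without cKO mouse 3 the positive share was 21 of 37, with a median of 0.028.

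Smallest unadjusted p-values in activated cells belonged to pentose phosphate genes. Pgd was at 113, 112 and 138 CPM in activated cKO cells and 98.2 and 117 CPM in activated control cells, with a sex-adjusted log2 fold change of 0.21 ± 0.07 (adjusted p = 0.692). G6pdx, at 134, 123 and 153 CPM in activated cKO cells and 112 and 126 CPM in activated control cells, had 0.22 ± 0.07 (adjusted p = 0.713), and Taldo1, at 121, 132 and 157 CPM in activated cKO cells and 111 and 129.8 CPM in activated control cells, by 0.21 ± 0.07 (adjusted p = 0.699). The cKO and control libraries overlapped for all 3 genes, since the female control library lay within the cKO range. Eno1 differed by 0.22 ± 0.09 (adjusted p = 0.806), Pgam1 by 0.27 ± 0.12 (adjusted p = 0.825), Tpi1 by 0.28 ± 0.16 (adjusted p = 0.841) and Eno2 by 0.27 ± 0.21 (adjusted p = 0.86). Tpi1 was called only when no low-count filter was used (0.28, adjusted p = 0.043), a setting that called 211 genes in place of 8, and its value was 0.08 without cKO mouse 3. On the lower side were Pdk1, at -0.19 ± 0.09 (adjusted p = 0.825), Hk3, at -0.18 ± 0.27 (adjusted p = 0.936), and Pfkfb2, at -0.17 ± 0.09 (adjusted p = 0.84).

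In rested cells 0 of 37 members differed between cKO and control (0.0422% of all genes; 1 member had an unadjusted p below 0.05, against 4.13% of all genes, and DESeq2 called 0). Log2 fold changes were positive for 28 of 37, with a median of 0.07 against 0.0038 over all tested genes, but for only 13 of 37, with a median of -0.03, without control mouse 2. Pgd differed by 0.16 ± 0.07, Pfkp by 0.20 ± 0.10, Taldo1 by 0.13 ± 0.07 and Bpgm by 0.19 ± 0.11 (adjusted p = 1 for each). Aldoc (0.79 ± 0.53) and Hk2 (0.52 ± 0.52) had the highest values and wide errors, from levels near 1 CPM. The lowest values were -0.16 ± 0.09 for Pdk1, -0.14 ± 0.23 for Eno2 and -0.09 ± 0.09 for Pfkfb2. The summed NK and innate-like list had a higher mean in rested cKO than in rested control libraries, but its libraries overlapped, as given above.

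For no member was a difference between genotypes in the change with activation called. The interaction test called 0 of 37 members and 0% of all tested genes. In that edgeR test 0 members had an unadjusted p below 0.05, as did 519 of all tested genes (2.74%). DESeq2 called 3 genes and 0 members. Interaction values, cKO minus control, were 0.14 ± 0.10 for G6pdx, -0.22 ± 0.17 for Pfkfb1, 0.41 ± 0.31 for Eno2, 0.19 ± 0.18 for Pgam1 and 0.11 ± 0.12 for Slc2a1. Aldoc (-0.56 ± 0.72), Hk2 (-0.35 ± 0.58) and Hk3 (-0.25 ± 0.37) had the lowest values (adjusted p = 1 for all 8). At the SE of Ldha, 0.18, and of Hk2, 0.58, differences smaller than about 2 SE were within the error, and a p above the threshold does not show equal responses.

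**Figure D4:**
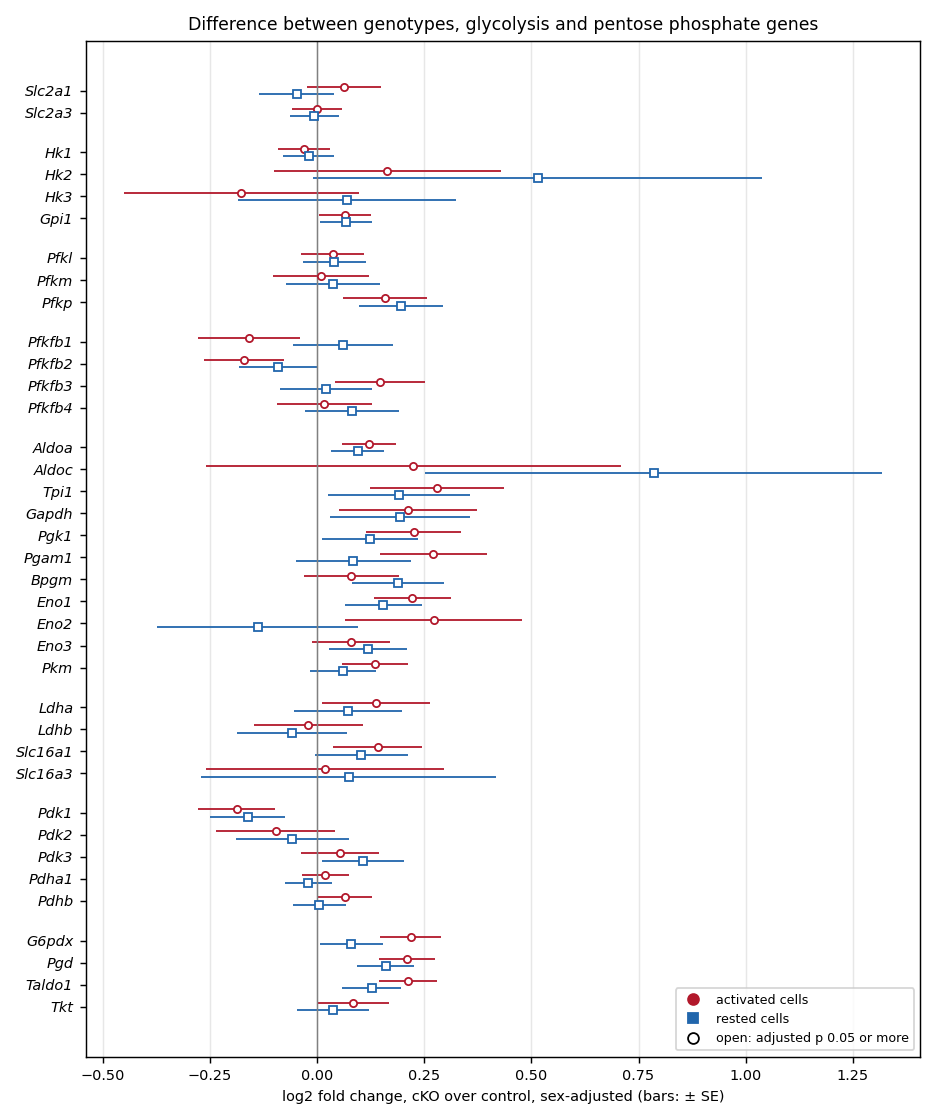
Sex-adjusted log2 fold change of cKO over control for the 37 tested genes in activated cells (red circles) and rested cells (blue squares), with SE bars. All symbols are open because no gene reached an adjusted p of 0.05, and 29 of 37 activated values lie to the right of 0.

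A split within the activated libraries that was looked at after the data were seen followed sex rather than genotype. Sex coincides with the number that starts the mouse names, so sex and whatever that number marks cannot be told apart. In activated cells 16 of 37 members were higher in females (2 mice) than in males (3 mice) and 1 was lower, where 6.36% of all tested genes were higher and 5.93% lower, in an edgeR fit with a sex effect in each state. In rested cells 0 of 37 differed (2.25% of all genes; 10 members had an unadjusted p below 0.05, against 13.1% of all genes, and the count was 1 with DESeq2 size factors). The interaction of sex with activation was called for 6 members, all with the larger rise in females, where 0.633% of all genes were called in that direction and 0.258% in the other. With each mouse as a block, which pairs the libraries of a mouse, 12 members were called, the 6 among them, all with the larger rise in females. The share of all tested genes called in that block fit was not computed, so the count of 12 has no background beside it.

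The 6 were Gapdh, Ldha, Pgam1, Pgk1, Tkt and Tpi1. Activated levels of Tpi1 were 122 and 89.8 CPM in the female libraries (cKO, then control) and 73.4, 64.3 and 59.2 CPM in the male ones. Gapdh was at 798 and 631 CPM in females and 548, 477 and 450.4 CPM in males. Ldha was at 725 and 615 CPM in females and 528, 487 and 465 CPM in males. For each of the 6 genes both female libraries lay above all 3 male ones, and within each sex the cKO mean lay above the control. The 6 were picked by a test on these same libraries, so their separation by sex is no further support. Female minus male log2 differences after activation were 0.73 ± 0.07 for Tpi1 (adjusted p = 0.000141), 0.57 ± 0.07 for Gapdh (adjusted p = 0.000756) and 0.47 ± 0.05 for Ldha (adjusted p = 0.000136). At rest they were 0.18 ± 0.08, 0.02 ± 0.07 and -0.03 ± 0.05. Pgk1 (0.45 ± 0.06), Pgam1 (0.48 ± 0.07), Tkt (0.34 ± 0.05), Eno1 (0.54 ± 0.06) and Pkm (0.42 ± 0.05) were also higher in activated female cells. Among the members called higher in activated female cells, Pgk1, G6pdx and Pdk3 lie on the X chromosome. Pdha1 and Pfkfb1 lie on it too and were not called. The part of X linkage was not tested.

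Pfkp went the other way, at 329 and 298 CPM in females and 499.7, 387 and 399 CPM in males after activation (-0.43 ± 0.11, adjusted p = 0.0458). These calls rest on few mice. For the fits that leave out a mouse, given next, the share of all tested genes called was not computed. Without cKO mouse 3 the counts were 0 in activated cells and 0 for the interaction, and without control mouse 1 or control mouse 2 they were 9 and 0. Without cKO mouse 1 they were 19 higher and 3 lower in activated cells and 13 higher and 1 lower for the interaction, and without cKO mouse 2 they were 15 higher and 1 lower, and 3. The titles of the cKO mouse 3 libraries are the ones that conflict with their other labels. Summed activation markers that rise were at 3224 and 3298 CPM in the activated female libraries and 3196, 2602 and 2720 CPM in the male ones, and those that fall were at 1130 and 1406 CPM in females and 1475, 1709 and 1694 CPM in males. Arrdc4, a glucose-responsive arrestin of the regulator list, was at 8.01 and 9.52 CPM in females and 21.8, 21.2 and 20.3 CPM in males. Their part in the difference between the sexes was not tested.

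**Figure D5:**
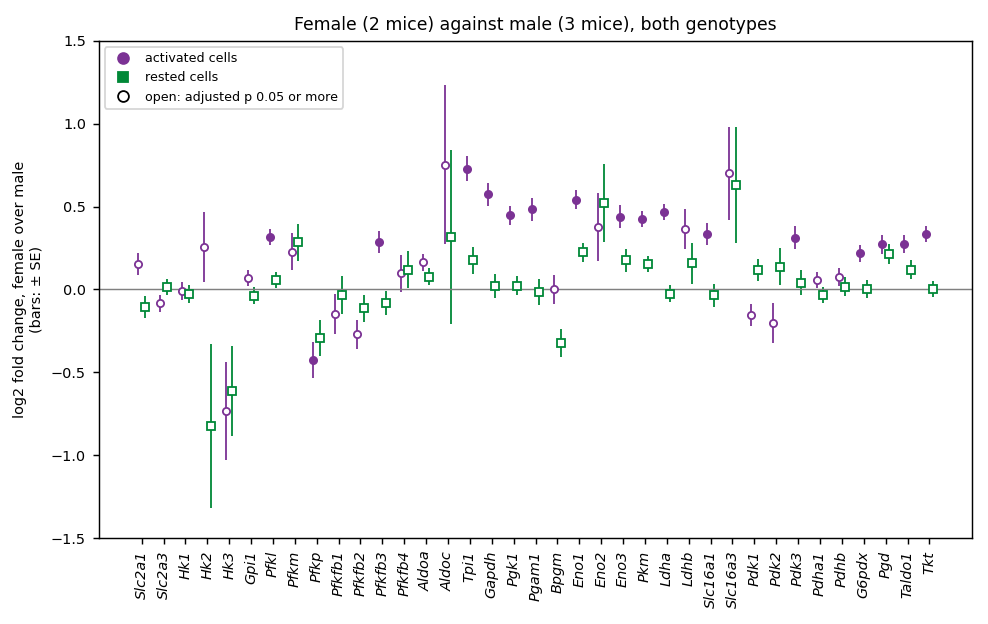
Female over male log2 fold change for the 37 tested genes in activated cells (purple circles) and rested cells (green squares), both genotypes together, 2 female and 3 male mice, with SE bars; filled symbols reached an adjusted p of 0.05. Filled symbols occur only in activated cells, 16 above 0 and 1 (Pfkp) below.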

How the data were processed

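RNA was sequenced from 10 libraries; a stranded mRNA kit was used, per the labels' protocols. The submitters' processing notes name the build mm39 and Subread, FastQC and MultiQC, without versions. Use of strand in counting and aligner settings are not stated in the labels. The authors' deposited counts are whole reads per gene and library, not normalized (51203786 to 65135435 a library). Their deposited FPKM values served for levels per transcript length, for isozyme ratios (log2 of FPKM + 0.05) and for limma alternatives.

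Counts were fitted in R 4.3.3 with edgeR 4.0.16 (TMM, filterByExpr by group, robust quasi-likelihood test, group means plus sex, all libraries together; biological coefficient of variation 9.14%, 5 residual degrees of freedom). CPM are counts over the TMM-scaled library size. Limma 3.58.1 and DESeq2 1.42.0 gave alternatives. The fit was tested on simulated data. Mice are separate animals, and no pair of replicate libraries agreed within sampling noise (lowest chi-square per degree of freedom 8.55). The 2 libraries of a mouse pair by animal, and the mouse block was an alternative. Their deviations from group means, not adjusted for sex, correlated at 0.22 to 0.50 over genes. With 2 control mice these deviations mirror each other, so both control mice give the same value. In the limma-voom fit, which has a sex term, the estimated correlation within a mouse was -0.135.

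The members and lists were chosen with earlier results of these data known. Members with values in every library were up to 5 per role by smallest p with activation in cKO cells, besides any under 1 CPM in every group. Gapdh was added outside this rule. For genotype and interaction they were the 3 highest, the 3 lowest and the 5 of smallest p. Other lists gave up to 3 genes each by smallest p, and some of these genes are not reported here. Promoter windows are of RefSeq's build GRCm38.p6, and their coordinates were not joined to the files.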

Additional observations from a re-analysis of the deposited data

Results flagged for a closer look

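For 6 members the change with activation differed between female and male mice in an edgeR interaction test that was added after the data were seen. The female minus male difference in the log2 change was 0.554 for Gapdh, 0.494 for Ldha, 0.498 for Pgam1, 0.424 for Pgk1, 0.332 for Tkt and 0.553 for Tpi1, with Benjamini-Hochberg adjusted p-values of 0.0134 to 0.0419 over all 18966 genes tested. In activated cells both female libraries lay above all 3 male ones for each of these genes. The genes were picked by a test on these same libraries, so this separation is no further support. Values without each mouse in turn kept their sign, but no member was called without cKO mouse 3, control mouse 1 or control mouse 2. Sex coincides with the number that starts the mouse names, so sex and that number cannot be told apart.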

How the results depend on the processing

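Counts of members called with activation were 30 to 34 in cKO and 29 to 32 in control cells under other scalings, filters, tests and sex terms, and 15 in each genotype when a change of at least 2-fold was also required. Leaving out each mouse in turn gave 32 to 33 in cKO and 27 to 32 in control cells, and 0 in each genotype comparison. Without either control mouse, 27 were called in control cells. With each mouse as a replicate block, 33 members were called in cKO, 31 in control cells (Pfkl was lost) and 0 for the interaction. With the mouse as a random block (limma-voom) the counts were 33, 32 and 0, and 0 in both genotype comparisons. Only without a low-count filter was a member called between genotypes, 1 in activated cells (Tpi1). Over all genes, 8 were called between genotypes in each state. That count was 211 in activated and 204 in rested cells without the filter, 19 and 29 with DESeq2, 31 and 12 with a sex effect in each state, and 49 and 25 without cKO mouse 2.

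Some values changed sign under a setting, none of them called. With activation, Ldhb in cKO cells was 0.017 by total counts and 0.015 in limma with either pseudocount, and -0.157 to 0.094 leaving out each mouse. Pdha1 in control cells was -0.011 with a sex effect in each state and -0.015 to 0.09 leaving out each mouse. Leaving out each mouse, cKO against control ranged from -0.07 to 0.723 for Eno2 and -0.303 to 0.012 for Pfkfb2 in activated cells, and from -0.476 to 0.155 and -0.228 to 0.003 in rested cells. The interaction ranged from -0.85 to 0.002 for Aldoc, -0.885 to 0.158 for Hk2 (0.009 in limma with a pseudocount of 0.5), -0.513 to 0.01 for Hk3 and -0.038 to 0.437 for Pgam1. With that pseudocount the ratio change was 0.185 for Hk3 over Hk1 and 4.195 for Hk2 over Hk1, 0.106 for Eno2 over Eno1, -1.398 for Pfkm over Pfkp, -0.464 for Pdk1 over Pdk2 and -1.044 for Slc16a3 over Slc16a1. Leaving out each mouse, the isozyme ratio change Slc16a3/Slc16a1 ranged from -0.125 to 0.004. Their cause was not tested. With 2 control mice, leaving out either leaves 1, whose spread is then taken from the remaining groups. Depth limits the members near or below 1 CPM in some group (Aldoc, Hk2, Hk3 and Slc16a3).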
